A study of Mus musculus with 6 samples.

Results

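Mitochondrial ribosomal protein genes encode the proteins of the mitoribosome, the ribosome inside mitochondria. They were taken as every listed gene whose symbol starts with Mrpl or Mrps followed by a number, which gave 78 of 16081 genes, 49 named for the large subunit (Mrpl) and 29 for the small subunit (Mrps). The rule used names only, no measured values, and whether each named protein is part of the mitoribosome was not checked. Transcripts were sequenced from mouse lung carcinoma cells of the Lewis line, which the labels call lung adenocarcinoma cells, after 24 hours with SD70, an inhibitor of the histone demethylase KDM4C (3 samples), or with DMSO, its vehicle (3 samples). The study's methods give no SD70 dose for RNA-seq and describe no genetic change in these cells. They say in general that experiments were repeated independently, but neither they nor the labels say that these samples were separate cultures. P-values therefore measure the spread between these samples, which may be technical.

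The mitoribosome translates the few messages of mitochondrial DNA, all of which encode subunits of the respiratory chain and the ATP synthase. Its RNAs come from mitochondrial DNA, but every one of its proteins is encoded in the nucleus, translated in the cytosol and imported. The small subunit decodes the message and the large subunit joins amino acids and feeds the chain into the inner membrane. Some members descend from bacterial ribosomal proteins and keep the bacterial number. Most of those with higher numbers are particular to mitochondria. Mrps24 is among the exceptions, as the counterpart of a bacterial protein with a lower number. Cells that rely on oxidative phosphorylation, many tumour cells among them, depend on it.

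Totals were between 15276744 and 17060424 counts per sample, and the members took 0.270%, 0.286% and 0.289% of them in DMSO samples 1, 2 and 3 and 0.296%, 0.307% and 0.295% in the SD70 samples. Single members had between 117 and 1818 counts per sample, and all 78 passed the filter on low counts. Of the 6 epithelial and lung markers, Krt8 was at a mean FPKM (fragments scaled to transcript length and library size) of 146 in DMSO and 97.8 in SD70 and Krt18 at 4.32 and 1.81, and both fell (adjusted p = 3.28e-11 and 2.97e-07, edgeR). Napsa was at 3.54 and 3.34 and did not pass, Epcam and Sftpc were at or near 0 and Nkx2-1 was not analysed here. Of 8 immune markers, Ptprc, Csf1r, Fcer1g and Coro1a were at or below 0.14 in both groups and S100a8 at 1.13 and 1.15. Cd68 was at 13.6 and 9.60 and fell, Lyz2 (0.840 and 1.44) and Cd79a (0.697 and 0.387) did not pass. Of 4 markers of fibroblasts and endothelium, Dcn was at 36.2 and 31.2 and fell, Cdh5 (0.927 and 0.997) did not pass, and Col1a1 and Pecam1 were at or below 0.04. The part of these marker changes in the results was not tested.

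Following SD70 treatment 24 of the 78 members rose and 6 fell, while 48 did not pass. With offsets for gene length 29 rose and 3 fell, where 27.8% of all genes rose and 23.2% fell. With library totals in place of TMM scaling 20 rose and 9 fell, where 22.8% of all genes rose and 27.4% fell. Rose and fell are used for an adjusted p under 0.01 in the quasi-likelihood test of edgeR, adjusted by Benjamini and Hochberg's method over the 11552 genes tested. Among all genes tested 25.8% rose and 24.2% fell, against 30.8% and 7.69% of the members, so the share that rose was near the background and the share that fell was below it. In bulk RNA, a change in the number of cells of a kind and a change in RNA per cell cannot be told apart. The log2 fold changes of the members ran from -0.64 to 0.60 with a median of 0.11, where all genes had a median of -0.0040 and quartiles of -0.25 and 0.25. With a log2 fold change of 1 or more in either direction asked for as well, 0 members were called, against 5.9% of all genes. DESeq2 and both limma fits also gave 0. An unadjusted p under 0.05 in edgeR was found for 43 of the 78 members and 7351 of the 11552 genes tested. At an adjusted p under 0.05, 33 members rose (background 30.7%) and 9 fell (background 29.5%).

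The normalized counts of the SD70 samples lay wholly above those of the DMSO samples for 32 members (background 32.8% of genes) and wholly below for 11 (background 31.6%). The groups overlapped for the other 35. To obtain normalized counts, each library was scaled to the average of the effective library sizes, and the fold changes in the plot of all 78 members come from the same fit.

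**Figure D1:**
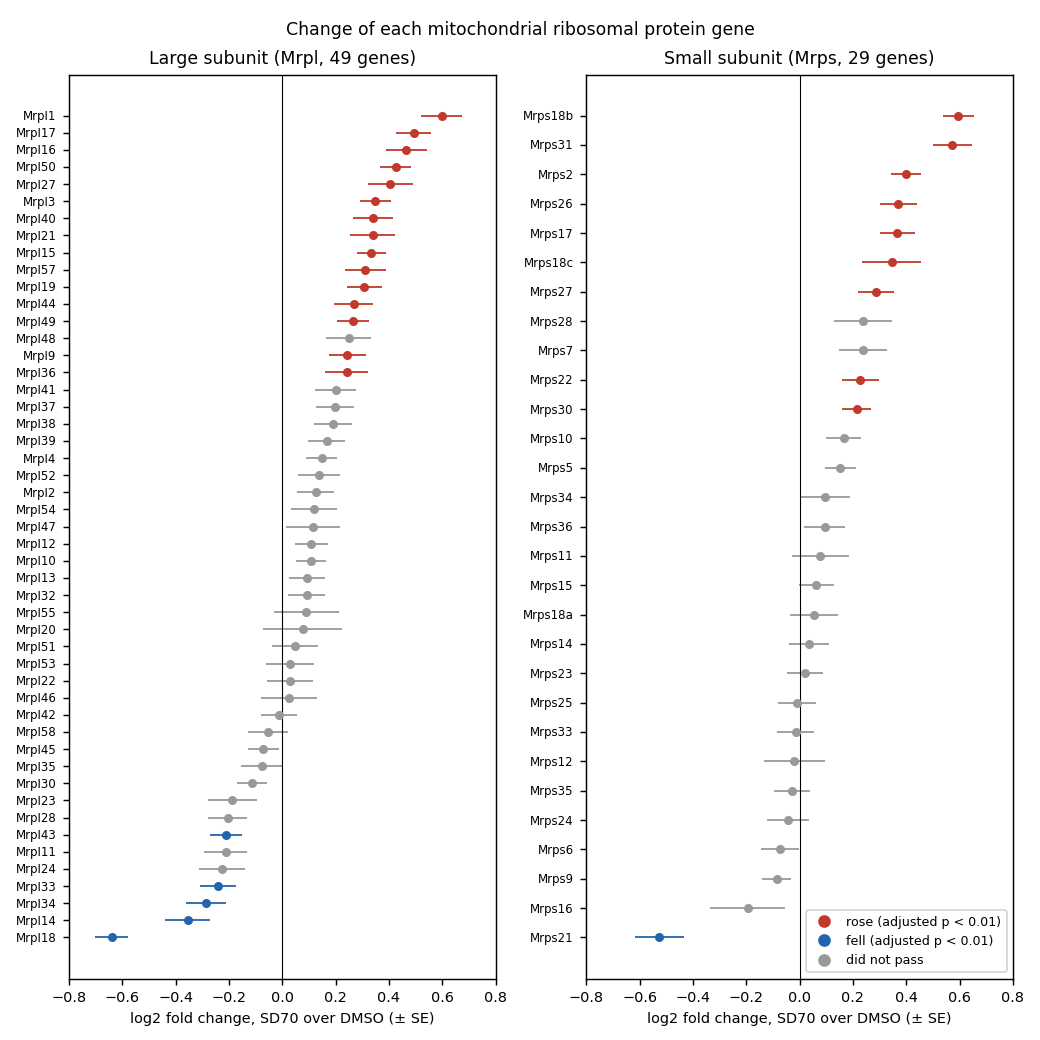
Log2 fold change of SD70 over DMSO with its standard error for each of the 49 large and 29 small subunit genes, sorted by value (x axis in log2 units, colours give the call). The values run from -0.64 (Mrpl18) to 0.60 (Mrpl1), and most lie within 0.3 of 0.

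Among large subunit members 15 rose, 5 fell and 29 did not pass. The largest rise was that of Mrpl1, the counterpart of the bacterial protein of the mobile stalk beside the exit site for tRNA (chr5:96209498-96266727, plus strand of GRCm38.p6, as are all positions below). Its normalized counts were 322, 348 and 305 in DMSO samples 1, 2 and 3 and 494, 478 and 503 in SD70 samples 1, 2 and 3. Every SD70 sample lay above every DMSO sample, and the log2 fold change was 0.60 ± 0.077 (SE, n = 3 per group, adjusted p = 3.61e-08, edgeR).

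Mrpl17, a conserved protein of the large subunit, was at 595, 611 and 580.2 in DMSO and 799.7, 827 and 888 in SD70 samples (log2 fold change 0.49 ± 0.065, adjusted p = 5.27e-08, edgeR). Mrpl16, whose bacterial counterpart sits near the tRNA sites, was at 342, 377 and 413 in DMSO and 519, 540.2 and 504 in SD70 (log2 fold change 0.47 ± 0.078, adjusted p = 3.85e-06, edgeR). In both the groups were apart, with the narrowest gap in Mrpl16. Mrpl50, a protein particular to mitochondria, was at 889, 940.1 and 919.7 in DMSO and 1298, 1205 and 1187 in SD70 (log2 fold change 0.42 ± 0.058, adjusted p = 1.21e-07, edgeR). Mrpl27, whose bacterial counterpart reaches to the peptidyl transferase centre, was at 265, 307 and 299 in DMSO and 383, 364 and 409 in SD70 (log2 fold change 0.41 ± 0.084, adjusted p = 9.11e-05, edgeR). Mrpl3, a core protein near the same centre, was at 965, 1017 and 1079 in DMSO and 1270.5, 1332 and 1293 in SD70 (log2 fold change 0.35 ± 0.058, adjusted p = 3.68e-06, edgeR). All of these members again had their 3 SD70 values above their 3 DMSO values. The other 9 that rose, Mrpl40, Mrpl21, Mrpl15, Mrpl57, Mrpl19, Mrpl44, Mrpl49, Mrpl9 and Mrpl36, had log2 fold changes between 0.24 and 0.34. Mrpl36, the lowest of them, passed narrowly (log2 fold change 0.24 ± 0.080, adjusted p = 0.00981, edgeR), and leaving out any single sample but SD70 replicate 2 ended its call. Single libraries also decided Mrpl21 (lost without DMSO replicate 1), Mrpl57 (SD70 replicate 2), Mrpl44 (DMSO replicates 1 and 2 and SD70 replicate 3) and Mrpl9 (every sample but SD70 replicate 1), whose highest adjusted p over all alternatives was 0.0127, 0.0124, 0.0207 and 0.0327. Mrpl48, chosen after its value was seen, had almost the same fold change and missed the threshold (log2 fold change 0.25 ± 0.084, adjusted p = 0.0104, edgeR).

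The largest fall of any member was that of Mrpl18 (chr17:12911345-12917787, minus strand), a protein of the central protuberance whose bacterial counterpart binds 5S rRNA. It was at 1096, 1135 and 1095 normalized counts in DMSO and 683, 767 and 685 in SD70 samples. The highest SD70 sample, replicate 2, stayed well below the lowest DMSO sample (log2 fold change -0.64 ± 0.062, adjusted p = 6.39e-11, edgeR), a mean difference of -35.8%. At 86.5 FPKM in DMSO, Mrpl18 was also one of the more abundant members, and it fell to 54.6 FPKM in SD70.

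Mrpl14, which lies at the face between the subunits and binds an assembly factor, was at 389.8, 382 and 374 in DMSO and 295, 328 and 271 in SD70 samples (log2 fold change -0.35 ± 0.083, adjusted p = 4.26e-04, edgeR). Mrpl34, a short conserved protein, was at 508, 519 and 469 in DMSO and 414, 390.3 and 424 in SD70 (log2 fold change -0.28 ± 0.075, adjusted p = 0.00134, edgeR). Mrpl33, another short conserved protein, was at 717, 783 and 715 in DMSO and 650.5, 652 and 569 in SD70 (log2 fold change -0.24 ± 0.068, adjusted p = 0.00284, edgeR). In each the groups were apart, and all belong to the members with the shorter transcripts. Mrpl43, particular to mitochondria, was at 899, 919.7 and 906 in DMSO and 793, 737 and 826 in SD70 (log2 fold change -0.21 ± 0.062, adjusted p = 0.00356, edgeR), again with no overlap. With offsets for gene length Mrpl14 (log2 fold change -0.23, adjusted p = 0.0158), Mrpl34 (-0.16, adjusted p = 0.0737) and Mrpl33 (-0.055, adjusted p = 0.475, edgeR) lost their calls, and single libraries decided others. Mrpl43 lost its call without DMSO replicate 2 (log2 fold change -0.21, adjusted p = 0.0126, edgeR) or SD70 replicate 2 (-0.17, adjusted p = 0.0359). Mrpl34 lost it without SD70 replicate 2 (-0.25, adjusted p = 0.0124, edgeR). Mrpl33 lost it without DMSO replicate 2 (-0.21, adjusted p = 0.0250, edgeR) or SD70 replicate 3 (-0.19, adjusted p = 0.0271).

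Among small subunit members 9 rose, 1 fell and 19 did not pass. Mrps18b (chr17:35910380-35916440, minus strand) led them with 820.5, 843 and 900.5 normalized counts in DMSO and 1238, 1315 and 1322 in SD70. The groups were far apart, at a log2 fold change of 0.59 ± 0.059 (SE, n = 3 per group, adjusted p = 1.06e-10, edgeR). Mrps31, particular to mitochondria, was at 414, 408 and 439 in DMSO and 602, 596 and 679.9 in SD70 (log2 fold change 0.57 ± 0.073, adjusted p = 3.12e-08, edgeR). Mrps2, a conserved protein between the head and the body of the subunit, was at 936, 959.6 and 956 in DMSO and 1243, 1249 and 1267 in SD70 (log2 fold change 0.40 ± 0.056, adjusted p = 1.87e-07, edgeR). Mrps26, particular to mitochondria, was at 472, 517 and 485 in DMSO and 604, 642 and 661 in SD70 (log2 fold change 0.37 ± 0.070, adjusted p = 2.57e-05, edgeR). In all 3 genes every SD70 value was above every DMSO value, and Mrps2 had the tightest replicates.

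Mrps17, a conserved rRNA-binding protein chosen after its value was seen, was at 520.4, 519.6 and 515 in DMSO and 656, 678 and 671 in SD70, well apart (log2 fold change 0.37 ± 0.067, adjusted p = 1.45e-05, edgeR). Mrps27, a pentatricopeptide repeat protein, was at 726, 774 and 913 in DMSO and 972, 969 and 1006 in SD70 (log2 fold change 0.29 ± 0.068, adjusted p = 5.10e-04, edgeR). Mrps22, particular to mitochondria, was at 568, 646 and 658 in DMSO and 752, 684 and 756 in SD70 (log2 fold change 0.23 ± 0.069, adjusted p = 0.00513, edgeR). The groups were apart in both, by little in Mrps22, whose call was lost when DMSO replicate 1 (log2 fold change 0.16), DMSO replicate 2 (0.24), SD70 replicate 1 (0.21) or SD70 replicate 3 (0.20) was left out. Mrps21, the counterpart of bacterial S21, was the single small subunit member that fell. It was at 327, 356 and 391 in DMSO and 239.5, 280.0 and 226 in SD70 samples (log2 fold change -0.53 ± 0.092, adjusted p = 8.17e-06, edgeR), with every SD70 sample below every DMSO sample.

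**Figure D2:**
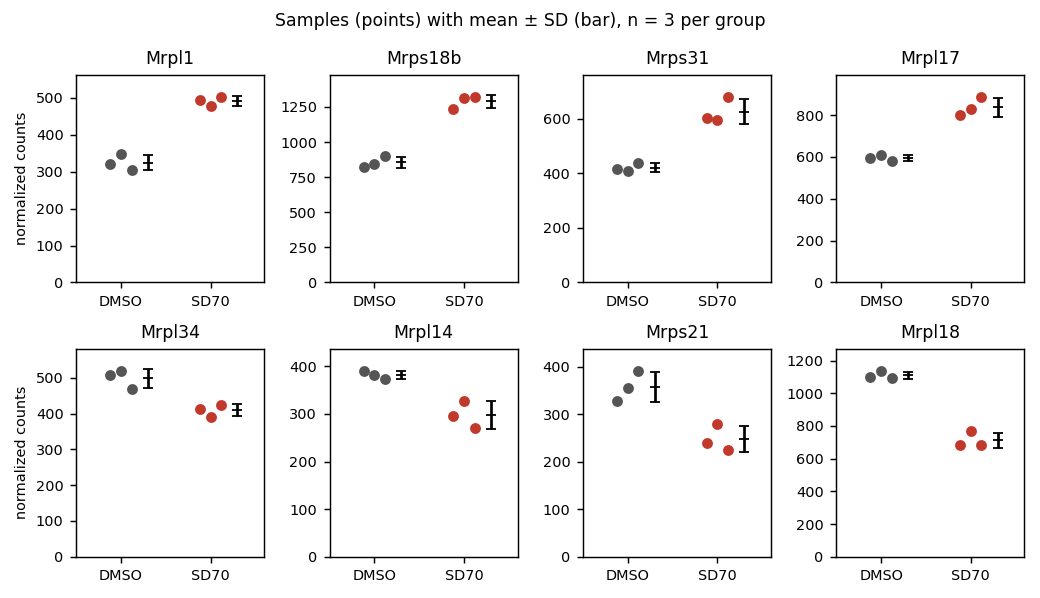
Normalized counts of 8 members in each sample (points) with the mean ± SD of each group (bars, n = 3), y axes from 0. The upper 4 genes lie higher in all SD70 samples than in any DMSO sample and the lower 4 lie lower, with Mrpl18 at 1095 to 1135 in DMSO and 683 to 767 in SD70.

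The 3 paralogs of bacterial S18 differed in their calls. Mrps18b and Mrps18c are built into the small subunit, and Mrps18a is known to sit in the large one in spite of its name. Mrps18c was at 172, 171 and 207 in DMSO and 259.8, 243 and 195 in SD70 samples (log2 fold change 0.34 ± 0.11, adjusted p = 0.00768, edgeR). It was the only member that rose with overlapping groups, since SD70 replicate 3 lay below DMSO replicate 3, and it lost its call without DMSO replicate 1 (log2 fold change 0.30), DMSO replicate 2 (0.29), SD70 replicate 1 (0.26) or SD70 replicate 2 (0.31). Mrps18a was at 346, 314 and 341 in DMSO and 308, 400.2 and 330.0 in SD70 (log2 fold change 0.054 ± 0.089, adjusted p = 0.625, edgeR), with groups that overlapped and a sign that turned without SD70 replicate 2 (-0.065). The differences between the paralogs' fold changes were not tested. Mrps30, the other protein with a small subunit name that is known to sit in the large subunit, was at 1526, 1506 and 1601 in DMSO and 1845, 1804 and 1724 in SD70 (log2 fold change 0.21 ± 0.054, adjusted p = 8.75e-04, edgeR). It rose with separate groups, a call that was lost without DMSO replicate 2 (0.19, adjusted p = 0.0157, edgeR).

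The large and small subunit had nearly the same median log2 fold change, 0.12 and 0.094. Both medians moved with the setting. The large subunit's was 0.073 without DMSO replicate 1 and 0.18 with length offsets, and the small subunit's was 0.056 with library totals in place of TMM, 0.15 with length offsets and 0.15 in members with whole counts and no shared exon. The difference was 0.021. Its SD between single samples of a group was 0.0226, which is not the error of a difference between groups. The difference turned to -0.0070 without DMSO replicate 1, to -0.0030 without DMSO replicate 3 and to -0.053 in members with whole counts and no shared exon. In the large subunit 20 members had SD70 samples wholly above and 9 wholly below the DMSO samples, and in the small subunit 12 and 2, where 32.8% of all genes tested lay wholly above and 31.6% wholly below. Summed counts gave another picture. The large subunit took 0.179% ± 0.00645 of all counts in DMSO and 0.187% ± 0.00467 in SD70, and the small subunit 0.103% ± 0.00386 and 0.112% ± 0.00192 (SD, n = 3). The ratio of large to small subunit counts was 1.73, 1.77 and 1.71 in DMSO samples 1, 2 and 3 and 1.68, 1.69 and 1.65 in the SD70 samples, so the groups did not overlap. With Mrpl18 left out, a choice made after its values were seen, the ratios were 1.67, 1.70 and 1.65 against 1.64, 1.65 and 1.62, and the groups met at 1.65. Counting Mrps18a and Mrps30 as large subunit members left both medians as they were, with 16 of 51 large subunit members risen and 5 fallen, and 8 of 27 small subunit members risen and 1 fallen.

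**Figure D3:**
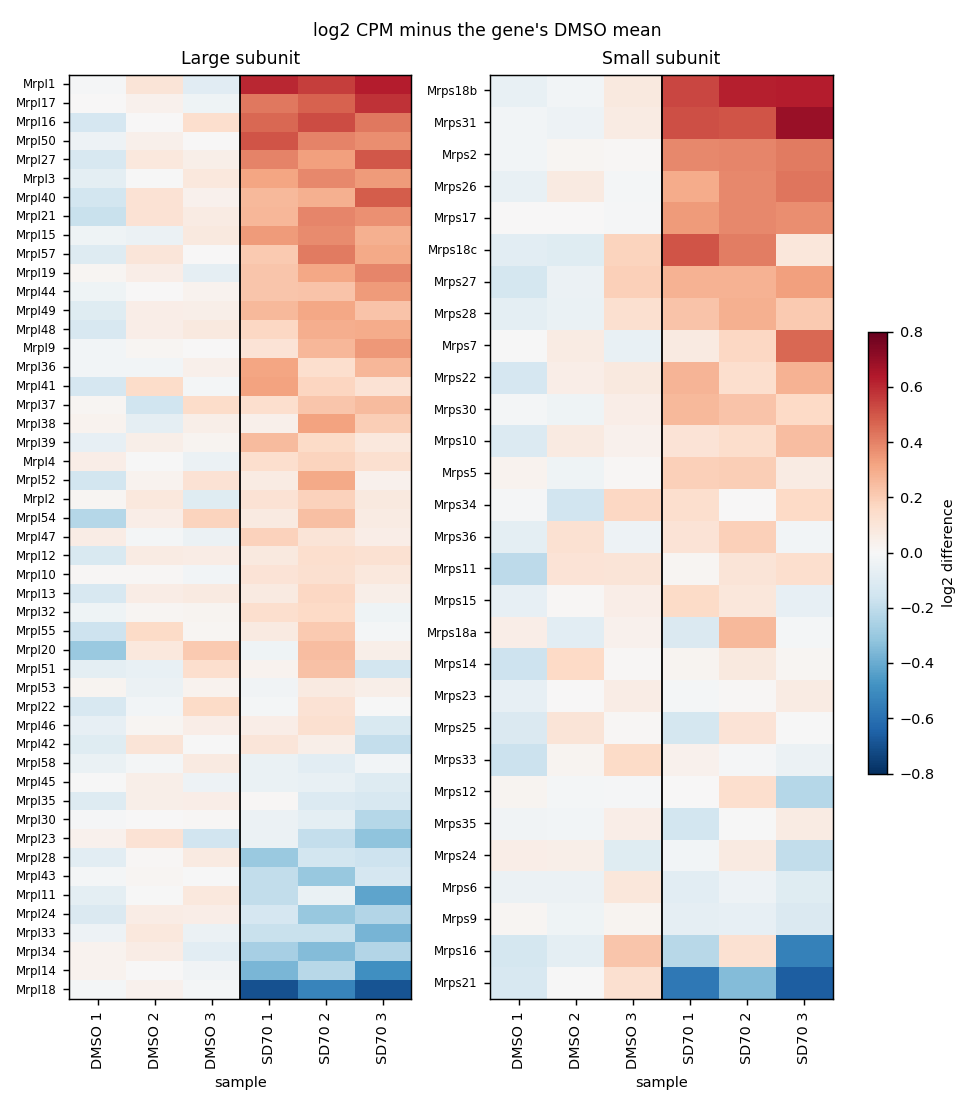
Log2 CPM of each member in each sample minus the mean of that gene's DMSO samples (colour, log2 units), genes sorted by fold change within each subunit. DMSO replicate 1 is below the DMSO mean for most genes, with a median of -0.055 in the large and -0.058 in the small subunit, while the SD70 samples have medians from 0.066 to 0.17.

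The replicates differed in the members as a whole. DMSO replicate 1 was above the DMSO mean for 18 of the 78 members, DMSO replicates 2 and 3 for 50 and 56, and the SD70 samples for 54, 60 and 48. The median deviation of the large subunit was -0.055, 0.037 and 0.031 for DMSO and 0.094, 0.17 and 0.066 for SD70, on the log2 scale. That of the small subunit was -0.058, -0.0040 and 0.054 in DMSO and 0.11, 0.14 and 0.068 in SD70. In both subunits the SD70 samples were higher, by a small margin between DMSO replicate 3 and SD70 replicate 3 in the small subunit. Without DMSO replicate 1 the count of members that rose was 18, and 7 fell, where 23% of all genes rose and 21.2% fell in the same fit.

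The members were also split by symbol number, which does not settle the descent of every one. A bacterial number is carried by 45, with Mrps24 counted among them, and of these 14 rose and 5 fell (median log2 fold change 0.091). Of the 33 others, with higher numbers, 10 rose and 1, Mrpl43, fell (median 0.14). Of the 12 small subunit members among them 5 rose by edgeR (Mrps31, Mrps26, Mrps27, Mrps22 and Mrps30). DESeq2 gave 4 and both limma fits gave 5, in each case without Mrps22. In that group 0 fell by edgeR, DESeq2 or limma, with 0 lower at an unadjusted p under 0.05. Of the 28 large subunit members with a bacterial number 10 rose and 4 fell. The share that rose was between 23.5% and 41.7% in the groups made by subunit and number, on both sides of the background of 25.8%. Among all genes tested 24.2% fell.

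Levels between genes were compared per length, by FPKM. Over all 6 samples the members had a median of 33.9 FPKM and spanned from 6.61 to 160.0. Mrpl30, a conserved large subunit protein, stood at the top with 168 ± 2.51 FPKM in DMSO and 153 ± 9.31 in SD70 (SD, n = 3), and Mrpl33 followed with 152 ± 10.9 and 129 ± 7.34. In DMSO these levels were apart by more than the SD of either. Mrpl52, Mrpl42 and Mrpl20, named for their rank after their values were seen, came next at 127 ± 6.69, 124 ± 8.88 and 115 ± 17.5 FPKM in DMSO, levels that did not differ beyond their SDs. In SD70 Mrpl52 was at 142 ± 10.5 FPKM and stood above Mrpl33. In the small subunit Mrps18b had the highest mean level over all samples, 73.9 FPKM, with 59.3 ± 1.96 in DMSO and 88.6 ± 3.37 in SD70, and Mrps30 was at 66.4 ± 1.58 and 75.6 ± 2.35. The order differed between the groups. In DMSO Mrps21 was highest at 71.3 ± 5.58 FPKM, ahead of Mrps30 by less than its SD, and in SD70 it was at 50.2 ± 2.76 and Mrps18b was highest. The lowest levels were those of Mrpl17 (5.57 ± 0.160 and 7.64 ± 0.421), Mrpl35 (7.17 ± 0.428 and 6.64 ± 0.336) and Mrps25 (7.10 ± 0.560 and 6.88 ± 0.610). The effective lengths behind these 3 values are among the longest of all members, 3520 to 6538 bases.

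Mrpl30 did not pass the test for a change (log2 fold change -0.11 ± 0.056, adjusted p = 0.0788, edgeR), although its normalized counts of 1468, 1477 and 1484 in DMSO and 1428, 1400.2 and 1261 in SD70 samples did not overlap. Mrpl35 was at 385, 427 and 429 in DMSO and 416, 382 and 378 in SD70, Mrps25 at 631, 736 and 690.5 in DMSO and 622, 739.8 and 682 in SD70, and Mrps11 at 161, 201 and 200.4 in DMSO and 189, 201 and 205 in SD70. These 3 had overlapping groups and log2 fold changes of -0.076 ± 0.078, -0.010 ± 0.071 and 0.078 ± 0.11, and none passed (edgeR). The sign of Mrps25 turned to 0.033 without DMSO replicate 2 and to 0.054 without SD70 replicate 1, and that of Mrps11 to -0.021 without DMSO replicate 1.

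More of the members with long transcripts rose and more of those with short ones fell. Of the 39 members with an effective length up to the median of 878 bases 6 rose and 5 fell, with a median log2 fold change of 0.076. Of the 39 longer ones 18 rose and 1, Mrpl43, fell, with a median of 0.20. Those shares were 46.2% and 2.56%, where 25.8% of all genes tested rose and 24.2% fell. Mrpl33 (292 bases), Mrps21 (301 bases), Mrpl14 (432 bases) and Mrpl34 (471 bases) were among the shortest. Length moved with the fold change outside the members too. Among 782 other tested genes no longer than 878 bases, 82 rose (10.5%) and 172 fell (22.0%), with a median of -0.098. With a length trend removed for each sample, 10 of the shorter members rose and 2 fell (median 0.14), and 19 of the longer members rose and 1 fell (median 0.19), where 27.8% of all genes rose and 23.2% fell in the same fit. In that fit Mrpl18 (-0.59) and Mrps21 (-0.35) still fell, as did Mrpl43 (-0.20), while Mrpl14, Mrpl34 and Mrpl33 no longer passed, at the values given with their falls.

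**Figure D4:**
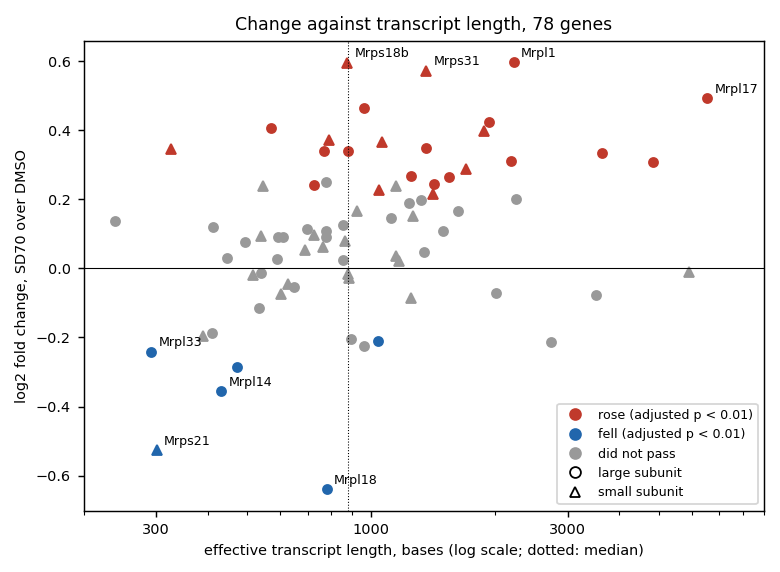
Log2 fold change of SD70 over DMSO (y axis) against effective transcript length in bases (log scale, x axis) for 78 members, with circles for the large and triangles for the small subunit and colours for the call. Of the 6 members that fell 5 lie left of the median length of 878 bases, and 18 of the 24 that rose lie right of it.

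The 5 listed subunits whose symbols do not start with Mrp were read beside the members. Ptcd3, a pentatricopeptide repeat protein of the small subunit, rose from 1341 ± 102 to 1964 ± 59.1 normalized counts (SD, n = 3, log2 fold change 0.55 ± 0.057, adjusted p = 3.29e-10, edgeR). Dap3, Chchd1, Aurkaip1 and Gadd45gip1 had log2 fold changes between -0.044 and 0.11 and did not pass.

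Of 26 factors that modify mitochondrial rRNA or assemble the subunits 14 rose by edgeR and by limma and 13 by DESeq2, while 0 fell by edgeR and DESeq2, 1 fell by limma, and 1 was lower at an unadjusted p under 0.05 in edgeR. The share that rose in edgeR was 53.8%, against 25.8% of all genes tested, and 24.2% of all genes fell. The median log2 fold change of the list was 0.34. Mterf3, which binds mitochondrial DNA and rRNA, rose from 339.9 ± 15.8 to 856 ± 40.4 normalized counts, Trub2, a pseudouridine synthase family member, from 441 ± 26.8 to 920.3 ± 75.3, and Ngrn, its partner on the large rRNA, from 296 ± 14.3 to 601 ± 18.3 (SD, n = 3). These 3 were the factors past an absolute log2 fold change of 1 in edgeR, at 1.33, 1.06 and 1.02. DESeq2 also gave 3 such factors, limma on log2(FPKM + 1) gave 1 and limma on log2(FPKM + 0.1) gave 2. The smallest rises were those of Rcc1l (0.30) and the helicase Ddx28 (0.37).

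Of 16 factors of mitochondrial translation 8 rose (50.0%, background 25.8%) and 1 fell (6.25%, background 24.2%), with a median log2 fold change of 0.25. Taco1, an activator of cytochrome oxidase translation, had the highest (0.44 ± 0.098), followed by the release factor Mtrf1l (0.39 ± 0.066), and Gfm2, which recycles ribosomes, had the lowest among those that rose (0.24 ± 0.071). Tufm, the elongation factor that brings tRNA to the mitoribosome, was the one that fell (-0.31 ± 0.058, adjusted p = 1.94e-05, edgeR). Of 12 listed regulators of mitochondrial transcription and biogenesis 7 rose and 0 fell by edgeR and DESeq2, with 1 fallen by limma and 1 lower at an unadjusted p under 0.05 in edgeR (median 0.30). Those that rose were 58.3% of the list, against 25.8% of all genes tested, and 24.2% of all genes fell. Myc rose most (1.24 ± 0.051) and was at 159.7 FPKM in DMSO and 369 in SD70, followed by Tfb2m (0.88 ± 0.066), a factor of mitochondrial transcription. Pprc1 (0.42 ± 0.062) and Gabpa (0.18 ± 0.050), the DNA-binding subunit of an ETS family factor, rose least. These lists were chosen with earlier results known, so their counts are descriptions.

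Of the 84 genes taken by a symbol of the cytosolic ribosome's proteins, Rpl7l1 and other like-named genes included, 81 were tested. Of these 24 fell (29.6%, near the background of 24.2%) and 1, Rpl7l1, rose (1.24%, below the background of 25.8%), with a median log2 fold change of -0.14. They took 7.39%, 7.71% and 7.60% of all counts in DMSO and 6.75%, 7.07% and 6.57% in SD70, with no overlap. Their median level of 1411 FPKM was far above that of the mitoribosomal genes, and their median effective length of 532 bases was shorter. The difference between both kinds of ribosome was not tested, and the part of length and depth in it was not tested either.

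The 78 members lie on 17 chromosomes, and 32 start head to head with another protein-coding gene whose start is within 1000 bases on the opposite strand, as the GENCODE M21 annotation gives it. In 30 of these pairs the neighbour was tested: 10 neighbours rose, 7 fell and 13 did not pass, where 25.8% of all genes tested rose and 24.2% fell. Of the 14 members that rose or fell and had a tested neighbour, 6 had one that changed in the same direction, 4 in the opposite direction and 4 one that did not pass, counts to be read against the same background. The same direction was seen for Mrps18b with Ppp1r10 (0.54 ± 0.062), Mrps18c with Helq (0.49 ± 0.10), Mrpl21 with Ighmbp2 (0.41 ± 0.093), Mrpl50 with Zfp189 (0.29 ± 0.090), Mrps27 with Ptcd2 (0.23 ± 0.060) and, downward, Mrpl14 with Tmem63b (-0.31 ± 0.071), where the values are the neighbours' log2 fold changes and standard errors. The opposite direction was seen for Mrpl27 with Eme1 (-0.76 ± 0.094), Mrpl57 with Ska3 (-0.21 ± 0.065), Mrpl49 with Fau (-0.15 ± 0.049) and Mrpl43 with Twnk (0.38 ± 0.069), the mitochondrial DNA helicase. Tcp1, the neighbour of Mrpl18 and a subunit of the cytosolic chaperonin, did not pass (-0.033 ± 0.047), nor did Hira, Wdfy1 and Ndufs6 beside Mrpl40, Mrpl44 and Mrpl36. Across the 30 pairs Pearson's r was 0.043 and Spearman's rho 0.014, a description over genes of the same libraries in which Mrps11 and Mrpl46 are each other's neighbour.

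**Figure D5:**
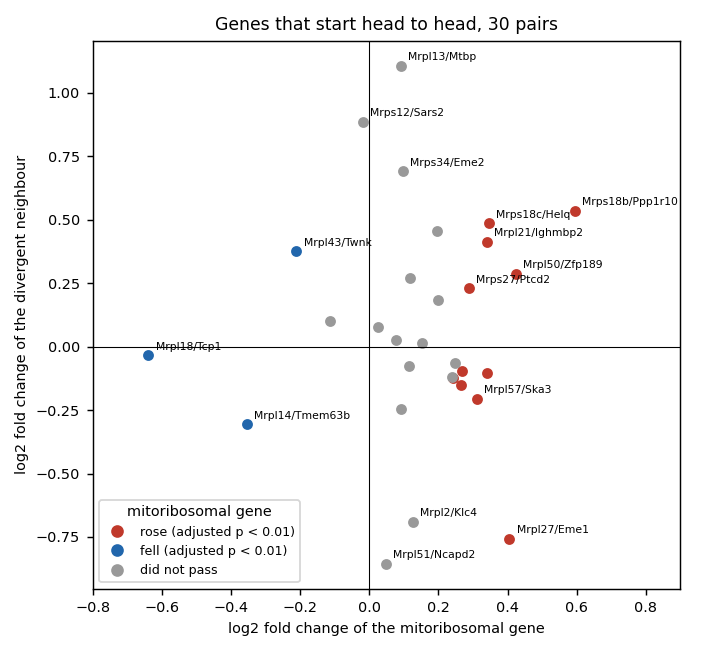
Log2 fold change of 30 mitoribosomal genes (x axis) against that of the gene that starts head to head with each (y axis), coloured by the call of the mitoribosomal gene. Points lie on all sides of both zero lines, with Mrps18b and Ppp1r10 both above 0.5 and Mrpl27 and Eme1 on opposite sides of 0.

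Shared exons limit some of these values, since the protocol does not state strand and reads of overlapping genes may not be separable. An exon overlap with another listed gene was found for 21 members. Among those that changed it covered 36% of the exon bases of Mrpl19, 33.4% of Mrpl43, 11.2% of Mrpl14, 10.1% of Mrpl18, and between 2.6% and 7.7% of Mrpl44, Mrpl27, Mrpl21, Mrpl9, Mrpl49 and Mrpl36. Counts that were not whole numbers were found for 9 members, Mrpl19 and Mrpl43 among them. In the 53 members free of both, 16 rose and 3 fell, where 25.8% of all genes tested rose and 24.2% fell.

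Promoters were read from the RefSeq table of GRCm38.p6, in windows from 250 bases before to 50 bases after a listed start, which matched 69 of the 78 members. The letters CCGGAAG of the ETS and GABP family are known at many genes of mitochondrial function. They were found on either strand in the windows of 26 of these 69 members (37.7%). The share was 9.93% over all genes with a listed promoter and 21.4% over tested genes, where a gene with several windows counts once. These letters stood in 10 of 22 members that rose (45.5%), 5 of 6 that fell (83.3%) and 11 of 41 that did not pass (26.8%), Mrpl14 being the member that fell without them. The NRF1 letters GCGCATGCG stood in 10.1% of members, 1.95% of all genes with a listed promoter and 4.36% of tested genes, and the YY1 letters ATGGCGGC in 17.4%, 2.6% and 6.05%. The Sp1 letters GGGCGG stood in 49.3% of members, above the 38.2% of all genes with a listed promoter and below the 69.5% of tested genes. The ATF4 and C/EBP letters TGATGNAA were in 0 of 69 members, in 4.51% of all genes with a listed promoter and in 2.76% of tested genes. Matches are descriptions of letters and not binding sites, no test was run on them, and matches of different motifs may overlap.

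The 250 bases before the start of Mrpl18, with the largest fall, and of Mrps18b, with the most significant rise, are shown 5′ to 3′, with matches of any of these motifs in capitals, as far as a match lies before the start. Mrpl18 has an ETS match far upstream and an Sp1 match nearer the start, and Mrps18b has an NRF1 match far upstream and Sp1 matches nearer the start. For Mrpl18 the start in the promoter table lies inside the gene span given above, so the bases shown are within that span.
Mrpl18, chr17:12916092-12916341, minus strand: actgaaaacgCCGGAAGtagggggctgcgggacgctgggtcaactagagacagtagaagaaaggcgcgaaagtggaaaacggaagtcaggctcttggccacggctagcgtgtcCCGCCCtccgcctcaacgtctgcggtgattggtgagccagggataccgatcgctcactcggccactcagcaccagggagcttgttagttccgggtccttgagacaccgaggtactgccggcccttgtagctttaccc
Mrps18b, chr17:35916441-35916690, minus strand: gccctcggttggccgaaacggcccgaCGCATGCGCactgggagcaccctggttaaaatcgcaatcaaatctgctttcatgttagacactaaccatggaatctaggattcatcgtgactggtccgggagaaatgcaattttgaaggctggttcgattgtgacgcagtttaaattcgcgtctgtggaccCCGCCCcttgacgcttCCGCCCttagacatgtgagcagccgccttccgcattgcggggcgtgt

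The ETS letters stood within 60 bases before the start in members that rose, fell or did not pass, those that did not pass being Mrpl53, Mrpl58, Mrpl52, Mrpl48, Mrpl22 and Mrps18a. In Mrpl18, Mrpl17 and Mrps18c, which changed, they lay farther upstream, from position -240 to -156, and in Mrpl33 at the start itself. The last 60 bases before the start are shown in the same way for 2 that fell, Mrpl34 and Mrpl43, and for 5 that rose, Mrps26, Mrpl3, Mrps22, Mrps27 and Mrpl27. In Mrps26 and Mrps27 the match lies on the opposite strand and reads CTTCCGG, and in Mrpl43 there are 2 matches. The capitals at the left edge of Mrps26 are the end of an Sp1 match. For Mrps27 and Mrpl27 the start in the promoter table also lies a few bases inside the gene span.
Mrpl34, chr8:71464866-71464925, plus strand: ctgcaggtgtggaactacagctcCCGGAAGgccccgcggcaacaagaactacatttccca
Mrpl43, chr19:45006443-45006502, minus strand: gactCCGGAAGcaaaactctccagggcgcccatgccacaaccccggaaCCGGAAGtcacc
Mrps26, chr2:130563697-130563756, plus strand: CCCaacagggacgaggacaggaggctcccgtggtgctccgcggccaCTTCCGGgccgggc
Mrpl3, chr9:105053208-105053267, plus strand: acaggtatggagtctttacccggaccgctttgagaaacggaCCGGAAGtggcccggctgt
Mrps22, chr9:98601680-98601739, minus strand: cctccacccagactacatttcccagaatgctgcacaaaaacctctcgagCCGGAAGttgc
Mrps27, chr13:99344726-99344785, plus strand: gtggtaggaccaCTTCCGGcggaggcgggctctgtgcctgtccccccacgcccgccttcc
Mrpl27, chr11:94653731-94653790, plus strand: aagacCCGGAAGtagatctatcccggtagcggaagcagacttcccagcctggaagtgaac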

How the data were processed

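RNA-seq libraries of 6 Lewis cell samples were made from oligo(dT)-purified mRNA and sequenced with BGISEQ-500, after which HISAT was used by the authors to align clean reads to GRCm38.p6. The submitters' processing notes name StringTie 1.3.3b and the build mm8 without saying what each was used for. The counting tool is not given in the sources used here. The authors deposited expected counts per gene, not normalized and not whole in 8.84% to 9.28% of values per sample, and FPKM values, scaled by effective transcript length and library size. Effective length was read from both.

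Expected counts were rounded, filtered by filterByExpr, scaled with TMM factors of 0.984 to 1.02 and tested over 11552 genes with edgeR 4.0.16 (R 4.3.3), using robust glmQLFit and glmQLFTest with Benjamini-Hochberg adjustment and no covariate. The biological coefficient of variation was 0.0460. Standard errors come from the F statistic. Precision is limited by 3 samples per group. Chi-square per gene between samples of a group was 2.26 to 5.63, so all 6 were kept. The fit was tested on simulated data.

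The study's text gives a p of 0.01 together with a log2 of 1. Here an adjusted p of 0.01 was used, first alone and then together with an absolute log2 fold change of 1. Alternatives were other normalizations, filters and length offsets (lowess, span 0.3), a replicate block, leaving out each sample, DESeq2 1.42.0, and limma 3.58.1 on log2(FPKM + 1) and log2(FPKM + 0.1). Named members are the 6 highest and 6 lowest changed ones of the large and the 4 and 4 of the small subunit, the 2 highest and 2 lowest levels of each, and the paralogs Mrps18a, Mrps18b and Mrps18c with Mrps30. Lists name their 2 highest and 2 lowest changed genes. The members and lists were chosen with earlier results of these data known. Promoters and gene positions come from RefSeq for GRCm38.p6. The labels' extraction text speaks of tissue, although the samples are cells.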

Additional observations from a re-analysis of the deposited data

How the results depend on the processing

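Over 16 other fits between 22 and 30 of the 30 changed members kept their call and 0 changed sign. The call held in all 16 for 18 members, 16 that rose and 2 that fell (Mrpl18 and Mrps21). With offsets for gene length, with or without a replicate block, 3 members fell, 29 and 31 rose, and the large subunit's median log2 fold change was 0.178. Over all genes 27.8% rose and 23.2% fell without the block, and 28.3% and 23.7% with it. Among members with whole counts and no shared exon, an alternative chosen after seeing the data, 3 fell, the small subunit's median was 0.153 and the large minus small difference -0.053. Library totals in place of TMM gave 20 risen and 9 fallen members, DESeq2 21 and 6, and limma 24 or 25 and 8. In these fits 21.5% to 23.1% of all genes rose and 21.3% to 27.4% fell.

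Leaving out each sample gave 18 to 24 risen and 4 to 7 fallen members, medians of 0.073 to 0.141 (large) and 0.070 to 0.122 (small), and a difference of -0.0070 to 0.027. Over all genes 22.1% to 24% rose and 21.2% to 22% fell in these fits. Among members that did not pass, Mrps11 turned to -0.021 without DMSO replicate 1, Mrps18a to -0.065 without SD70 replicate 2 (0.135 without SD70 replicate 1), and Mrps25 to 0.040 with length offsets (0.040 with the block as well), to 0.033 without DMSO replicate 2 and to 0.054 without SD70 replicate 1 (-0.073 without SD70 replicate 2). The cause was not tested.

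The replicate block gave 26 risen and 6 fallen members and kept all 30 calls, where 26.3% of all genes rose and 24.8% fell. Rank correlations of same-numbered samples were 0.122, -0.0102 and 0.00770 over 11552 genes. Pearson correlations were -0.0686, 0.0477 and 0.114 over the same genes, 0.176, 0.254 and 0.157 at a mean count of 100 or more, and 0.154, -0.0307 and -0.0233 at 200 or more. The check thus depended on the measure and the genes, and not every sample correlated best with its own number, so the numbers were not taken to pair the samples. Counts per sample and 3 samples per group limit what could be called, and the smallest change that passed was that of Mrpl43 (-0.21).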
